A study of Mus musculus with 2 samples.

Results

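The microRNA (miRNA) miR-21a was examined through the rows mmu-miR-21a-5p and mmu-miR-21a-3p, 2 of the 1907 mature miRNAs in a table of small RNA counts. Its members were chosen by name, as the products of the 5′ and the 3′ side of 1 hairpin. The table came from mouse embryonic stem cells labelled Dicer knockout, on a 129/Ola background with the stage given as E14. The label E14 is also the name of a common stem cell line, but the labels do not use it as one. The cells were grown in 15% serum with 100 U/mL of LIF, the cytokine that keeps such cells undifferentiated, on plates coated with 0.2% gelatine. Both samples, Dicer_KO1 (library 1, described as C1) and Dicer_KO2 (library 2, described as H11), carry the knockout and form 1 group of 2. No sample with Dicer was analysed here, and nothing says whether C1 and H11 are separate clones or how the gene was disrupted, so levels in the knockout cells are described without a control.

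A miRNA gene is copied into a long transcript from which Drosha cuts a hairpin, and Dicer then cuts off the loop to leave a duplex of the 5p and 3p arms. Argonaute keeps 1 arm as the guide, which pairs with target messenger RNAs mainly through its seed, bases 2 to 8, and the other arm is usually degraded. miR-21 is a well-known growth-linked miRNA that rises in many tumours and in injured tissue. Its 5p arm is the usual guide and represses Pdcd4 and Sprouty genes, which restrain growth. Its gene is a target of STAT3, the transcription factor through which LIF acts in mouse embryonic stem cells.

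The mature sequences of the members and of the related entries miR-21b and miR-21c are shown because the seed decides which messages an arm can pair with. They are taken from RefSeq (GRCm38.p6) and written 5′ to 3′ with the seed in capitals.
miR-21a-5p: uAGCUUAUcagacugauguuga
miR-21a-3p: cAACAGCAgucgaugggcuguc
miR-21b: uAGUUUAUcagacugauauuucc
miR-21c: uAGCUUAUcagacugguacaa
The arms of miR-21a have different seeds, AGCUUAU in 5p and AACAGCA in 3p, so they pair with different sites. A site matching the 5p seed reads AUAAGCU in the message, and one matching the 3p seed reads UGCUGUU. Among 1679 distinct mature miRNA names in the RefSeq table, of which 1623 matched rows of the count table, the 5p seed was found in 2, miR-21a-5p and miR-21c. The 3p seed was found in 1, miR-21a-3p itself. The remaining rows of the 1907 in the count table were not matched by name and were not searched. Other miRNAs with either seed could be among them.

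Positions counted from 1 at the 5′ end show how near the relatives are. Over 22 positions, miR-21b differs from miR-21a-5p by C4U, which lies in the seed, and by G18A, G21U and A22C. Over 21 positions, miR-21c is identical for the first 15 bases and then differs by A16G, G18A, U19C, U20A and G21A. A read that starts at the first base of miR-21a-5p and holds no mismatch would fit miR-21c as well only at 15 nt or less. It would fit miR-21b only at 3 nt or less. In the table miR-21b had 1 count, in library 2, and none in library 1, and miR-21c had 0 in both. A count of 0 allows a share of up to 0.00663% of library 1 and 0.00801% of library 2. Nearly all counts with a miR-21 name thus stood under miR-21a.

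The miR-21a hairpin is 92 nt long and lies on chromosome 11 at 86584067 to 86584158, minus strand (GRCm38.p6; the submitters' notes name mm10, the same assembly). The 5p arm covers 86584120 to 86584141 and the 3p arm 86584082 to 86584103. GENCODE M21 places the hairpin in the 3′ UTR of Vmp1, in its exon 12, on the same strand and 1150 nt past the stop codon. Vmp1 encodes a membrane protein needed for autophagy. A fragment of the Vmp1 message over an arm would have the same strand as the miRNA. The hairpin folded with a predicted free energy of -46.2 kcal/mol, with 19 base pairs between the arms, of which 8 were G:C, 8 were A:U and 3 were G:U. In this fold the 3p arm ran 2 nt past the pair at the start of 5p, on the Drosha side. The 5p arm ran 1 nt past the pair at the start of 3p, on the Dicer side. All of the first 4 bases of each arm were paired, 2 of them in G:C pairs at either end.

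The 2 libraries were shallow, with 45222 counts in library 1 and 37476 in library 2, of which the miRNAs numbered 1000 or below in miRBase held 11624 and 7784. These counts are not normalised and carry no molecular identifiers, so intervals cover counting error only. Without the members, the composition of the libraries was compared over 127 miRNAs with at least 10 counts. It differed by a chi-square statistic of 2044 on 126 degrees of freedom, so the 2 were treated as separate libraries. That difference cannot tell whether they came from separate cultures. Levels are given as the percent of all counts in the table.

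The 5p arm was one of the most abundant of the miRNAs counted in these libraries. In library 1 miR-21a-5p had 1137 counts, or 2.51% of the library (95% Wilson interval 2.37 to 2.66). In library 2 it had 537 counts, or 1.43% (1.32 to 1.56). The level was higher in library 1 and the intervals did not overlap. The mean was 1.97% ± 0.765 (SD, n = 2), equal to 19736 ± 7646 counts when each library is scaled to 1000000. It ranked 8 of 347 miRNAs with a count in library 1 and 9 of 344 in library 2.

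The 3p arm, the strand that is usually discarded, was also plentiful. In library 1 miR-21a-3p had 214 counts, or 0.473% (0.414 to 0.541). In library 2 it had 86 counts, or 0.229% (0.186 to 0.283), again lower than in library 1 with no overlap. The mean was 0.351% ± 0.172 (SD, n = 2), at rank 16 in library 1 and 22 in library 2. Together the arms took up 2.99% of the counts in library 1 and 1.66% in library 2; the mean was 2.32% ± 0.937 (SD, n = 2).

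Most counts of the table belong to late-numbered entries, so the members were also placed among the 843 miRNAs numbered 1000 or below. On that base miR-21a-5p made up 9.78% in library 1 (9.25 to 10.3) and 6.90% in library 2 (6.36 to 7.48). The mean was 8.34% ± 2.04 (SD, n = 2). Its rank was 3 in both libraries, after miR-182-5p and miR-183-5p. On the same base miR-21a-3p made up 1.84% in library 1 (1.61 to 2.10) and 1.10% in library 2 (0.896 to 1.36), with ranks of 9 and 13. Its mean share was 1.47% ± 0.521 (SD, n = 2).

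The neighbours of miR-21a-5p in the order of mean levels were compared with it by their spread. Above it, miR-183-5p, from a cluster known for its role in sensory cells, had 3.48% of library 1 and 2.39% of library 2. It exceeded miR-21a-5p within each library, but its mean of 2.94% ± 0.767 (SD, n = 2) overlapped the range of miR-21a-5p. The entry miR-6236, with 1.45% and 2.74%, lay below miR-21a-5p in library 1 and above it in library 2, so their order was not fixed. Below it, miR-293-5p and miR-295-5p, of the miR-290 cluster typical of embryonic stem cells, had means of 0.968% ± 0.142 and 0.735% ± 0.156 (SD, n = 2). Their highest values, 1.07% and 0.845%, were under the lower value of miR-21a-5p.

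The range of miR-21a-3p over the 2 libraries was not separated from those of its neighbours. Above it stood miR-669a-5p at 0.540% ± 0.175 and miR-127-3p at 0.398% ± 0.154, and below it miR-5100 at 0.314% ± 0.00284 and miR-3535 at 0.291% ± 0.0419 (SD, n = 2 each). The range of miR-21a-3p, 0.229% to 0.473%, overlapped the range of each of these 4 entries. Within each library, however, miR-669a-5p exceeded miR-21a-3p, with 0.663% of library 1 and 0.416% of library 2. By contrast, miR-127-3p, miR-5100 and miR-3535 lay below miR-21a-3p in library 1 and above it in library 2. miR-669a-5p comes from a family of near-identical hairpins, and how shared reads were counted is not given in the sources used here.

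The libraries were then compared, which asks how far levels varied between these samples and not how a condition acts. Both arms had a higher share in library 1. For miR-21a-5p the share in library 1 was 1.75 times that in library 2 (95% exact interval 1.58 to 1.95), a log2 ratio of library 2 to library 1 of -0.81 (Fisher's exact test, two-sided, Benjamini-Hochberg adjusted p = 1.98e-27). For miR-21a-3p it was 2.06-fold higher (1.60 to 2.68), a log2 ratio of -1.04 (Fisher's exact test, adjusted p = 7.26e-08). A call asked for an adjusted p below 0.05 together with a 2-fold or larger difference, so 1 of the 2 members, miR-21a-3p, was called. Of the 129 miRNAs tested 10 were called, or 7.75%, and 4 of them, or 3.10% of those tested, were higher in library 1. By the adjusted p alone both members passed, as did 25 of the 129 (19.4%), 13 of them higher in library 1 (10.1%).

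The position of the members among the 129 miRNAs was towards the low end of the ratios. The median log2 ratio of all tested was -0.05, with quartiles at -0.52 and 0.48. A lower ratio than that of miR-21a-5p was found in 17 of them, and a lower ratio than that of miR-21a-3p in 11. The interval of miR-21a-3p included 2-fold, and that of miR-21a-5p ended just below it. With 1 library on each side these differences have no replicate check.

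**Figure D1:**
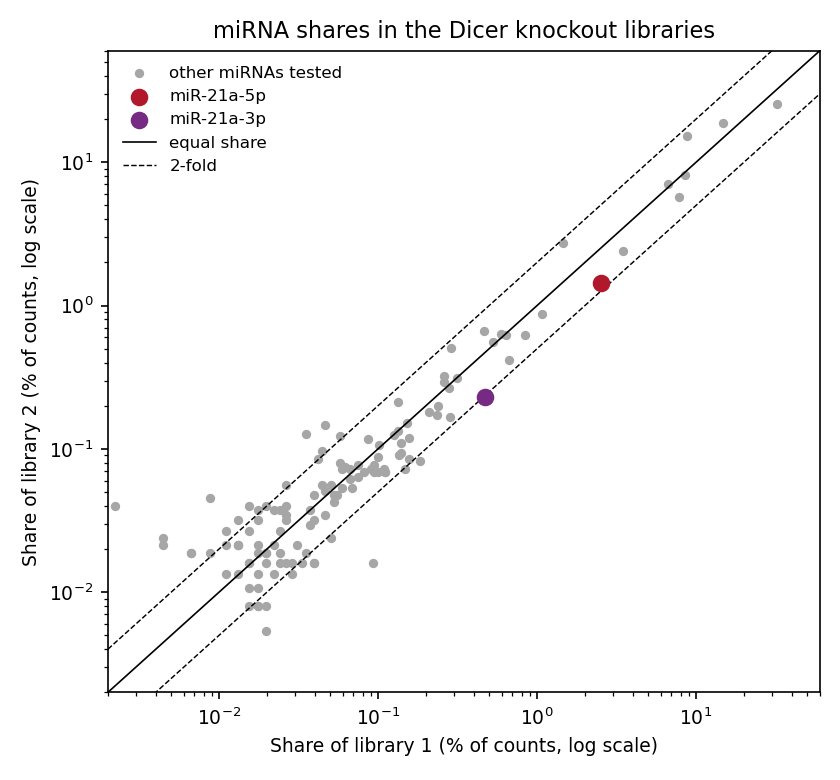
Share of each of the 129 tested miRNAs in library 1 (x axis) and library 2 (y axis), in percent of all counts on log scales, with 1 point per miRNA, a solid line for equal shares and dashed lines for 2-fold differences. miR-21a-5p (2.51% and 1.43%) lies between the equal and the 2-fold line and miR-21a-3p (0.473% and 0.229%) just past the 2-fold line, both towards library 1.

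The scale between the libraries set whether the 3p arm was called, and the direction was the same under all 5 scales. For miR-21a-3p the difference stayed just past 2-fold with TMM scaling, was 2.13-fold with DESeq2 size factors and was 1.99-fold with the total without the 10 most abundant miRNAs. It was 1.67-fold when only miRNAs numbered 1000 or below made up the total (Fisher's exact test, adjusted p = 0.000489). The call was lost under the last 2. For miR-21a-5p the fold ran from 1.42 on this last scale (Fisher's exact test, adjusted p = 1.58e-10) to 1.81 with DESeq2 size factors. This scale raised the log2 ratio of both members by 0.31, to -0.50 for miR-21a-5p and -0.74 for miR-21a-3p. The median was 0.22 over the 112 miRNAs tested on it, which leave out the late-numbered entries.

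**Figure D2:**
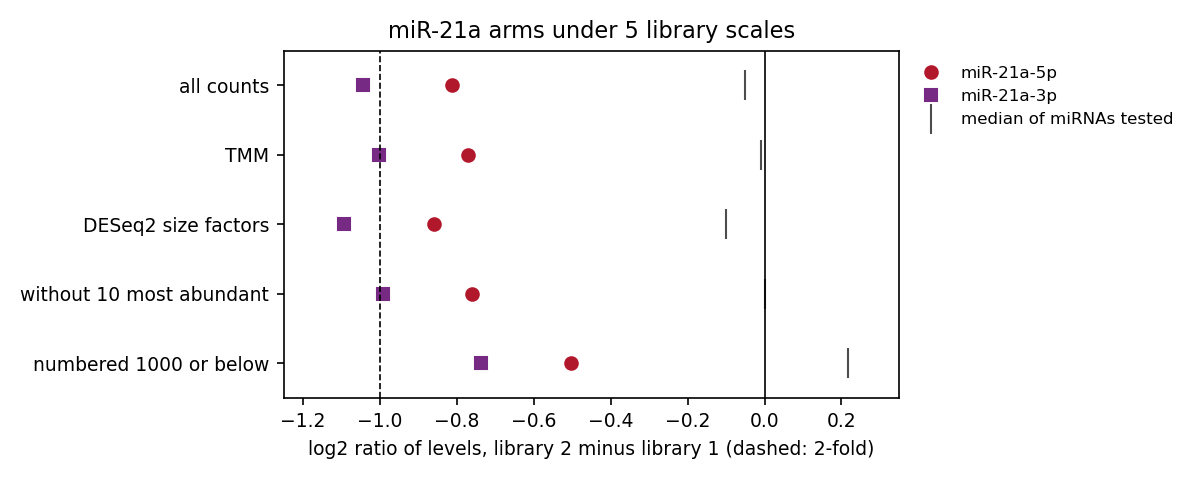
Log2 ratio of library 2 to library 1 (x axis) for miR-21a-5p (circles), miR-21a-3p (squares) and the median of the miRNAs tested (ticks) under 5 library scales (y axis), with the dashed line at 2-fold. Both arms lie below 0 under each scale, from -0.86 to -0.50 for miR-21a-5p and from -1.09 to -0.74 for miR-21a-3p.

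The arms of miR-21a kept nearly the same proportion in both libraries. The 5p arm held 1137 of 1351 counts of the hairpin in library 1, or 84.2% (95% Wilson interval 82.1 to 86.0). It held 537 of 623 in library 2, or 86.2% (83.3 to 88.7). The mean was 85.2% ± 1.44 (SD, n = 2), which left 14.8% to the 3p arm. There were 5.31 counts of 5p for each count of 3p in library 1 and 6.24 in library 2. The log2 odds ratio of 5p to 3p, library 2 minus library 1, was 0.23 with a 95% interval from -0.17 to 0.64 (Fisher's exact test, p = 0.252, adjusted p = 1). The libraries' arm ratios were therefore not distinguished at this depth, although 1 arm was called between them and the other was not. This test does not depend on the library scale. Of 101 hairpins tested in the same way, 3 (2.97%) passed the adjusted threshold.

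Arm use was set beside that of the 5 other hairpins with the most counts, by 10 tests within libraries. The 5p share of miR-21a was lower than that of miR-182, by 14.4 percentage points in library 1 and 12.6 points in the other (adjusted p = 5.98e-78 and 1.21e-35, Fisher's exact test). Against miR-183 it was lower by 11.99 and 10.05 points (adjusted p = 1.23e-29 and 9.74e-13, Fisher's exact test). Against miR-293 it was lower by 9.26 and 5.61 points (adjusted p = 3.40e-08 and 0.00962, Fisher's exact test). The 3p arm made up 15.8% of the counts of miR-21a in library 1 and 13.8% in library 2, and 1.39% and 1.20% of those of miR-182.

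The other comparisons went the opposite way. The 5p share of miR-21a was higher than that of miR-295, by 19.6 points in library 1 and 37.9 points in the other (adjusted p = 1.00e-20 and 1.78e-42, Fisher's exact test). It was higher than that of miR-92a, whose guide is the 3p arm, by 81.8 and 80.2 points (adjusted p = 2.86e-169 and 6.67e-117, Fisher's exact test). These tests compare counts within a library and cover counting error only, but each direction was the same in both libraries.

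Among 19 hairpins that reached 50 counts in both libraries, miR-21a stood at place 9 by its mean 5p share. The median of the 19 was 83.2%, and 5p held more counts in 14 of them. Just above stood miR-30c at 87.7% ± 4.13 and miR-291a at 86.7% ± 4.71, whose values in the libraries overlapped those of miR-21a. Just below stood miR-16 at 83.2% ± 0.694, whose 83.7% and 82.7% were under both values of miR-21a with overlapping Wilson intervals (SD, n = 2 for each). The proportion of arms in miR-21a was thus near the middle of this set.

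**Figure D3:**
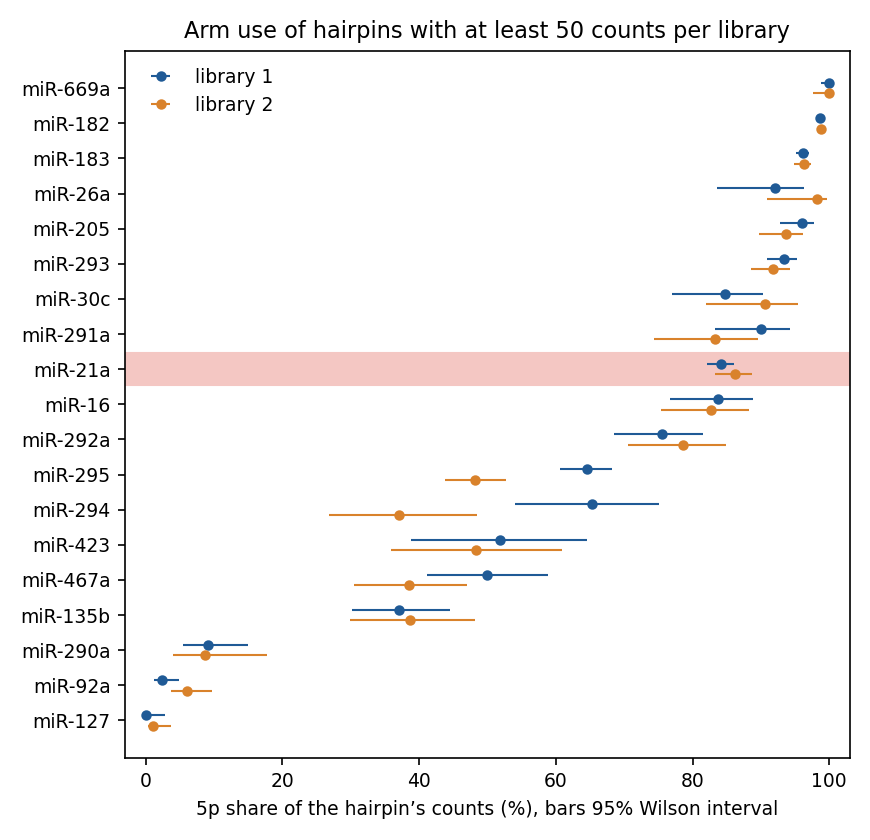
The 5p share of the counts of a hairpin in percent (x axis) for 19 hairpins that reached 50 counts in both libraries (y axis), with points for library 1 (blue) and library 2 (orange) and bars for the 95% Wilson interval. The shaded miR-21a lies at 84.2% and 86.2%, with overlapping intervals, below miR-182 and miR-183 and above miR-295.

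In absolute counts the 3p arm of miR-21a was large for a less abundant arm. When the arm with fewer counts was taken from each of 776 hairpins, miR-21a-3p had the most counts in library 1, 214 against 210 for miR-295-3p. In library 2 it was in place 2, with 86 counts, after miR-295-5p with 234 and before miR-467a-5p with 50. Among these hairpins with both arms listed, that of miR-21a is among the 3 with the most counts, with 1974 over both libraries against 2568 for miR-183 and 5752 for miR-182.

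The miRNAs most like the members in their difference between libraries were named by the distance between log2 ratios, over 2 libraries and 34 miRNAs with at least 100 counts. Nearest to miR-21a-5p were miR-290a-3p at -0.76, miR-1949 at -0.88 and miR-669a-5p at -0.67, followed by miR-21a-3p and by miR-183-5p at -0.54. Nearest to miR-21a-3p were miR-30d-5p at -1.15, miR-1949, miR-21a-5p, miR-290a-3p and miR-669a-5p. Each arm was thus among the 5 nearest to the other, at a distance of 0.23. These ratios share the same library totals and are a description.

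Other miRNAs with roles near that of miR-21 were counted from a list of 12 growth-linked miRNAs. Of these, 4 were at 0 in both libraries, among them miR-155-5p, miR-221-3p and miR-222-3p, which are raised in many tumours as miR-21 is. Only 3 of the 12 reached the 10 counts needed for the test, and 0 were called in either direction, beside 7.75% of all tested. By Fisher's adjusted p alone the count was also 0, beside 19.4%, and with 3 members tested nothing is read from it. Their median log2 ratio was -0.02, beside -0.05 for all tested. The most abundant, miR-92a-3p of the miR-17-92 cluster, had 288 counts (0.637%) in library 1 with 235 (0.627%) in the other. The whole list held 0.728% of library 1 and 0.704% of library 2, so that miR-21a-5p had 3.46 and 2.03 times its counts.

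The cell type was checked against 17 miRNAs of embryonic stem cells, from the miR-290 cluster, miR-302 and miR-367. The list holds 12 of the 18 entries of the miR-290 cluster and leaves out, for example, miR-291b-5p with 24 and 16 counts. They held 3.57% of library 1 and 3.19% of library 2, all of it from the miR-290 cluster, while the 5 listed arms of miR-302 and miR-367 were at 0. In this list 12 members were tested, 0 were called higher in library 1 and 1, miR-294-3p, higher in library 2, beside 7.75% called of all tested. By the adjusted p of Fisher's exact test alone, 3 were higher in library 1 and 2 in library 2, beside 19.4% of all tested. Their median log2 ratio was -0.28, beside -0.05 for all tested. For each count of this list there were 0.704 counts of miR-21a-5p in library 1 and 0.449 in library 2.

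Since miR-21 is abundant in many differentiated cells, markers of other cells were summed beside it. The 10 fibroblast or feeder markers held 0.142% of library 1 and 0.139% of library 2, and miR-199a-5p, miR-214-3p and miR-29a-3p were at 0 in both. The largest of them was miR-22-3p, with 34 and 24 counts, while the defining miR-143-3p had 6 counts in library 1 with 12 in the other, and miR-145a-5p had 1 and 0. The 9 markers of differentiated cells, let-7 with miR-125b, held 0.0641% and 0.0267%. The 8 of blood and serum held 0.0663% and 0.0614%, with miR-451a, miR-223-3p, miR-122-5p and miR-144-3p at 0. In counts, miR-21a-5p exceeded the summed fibroblast markers 17.8 times in library 1 and 10.3 times in library 2. The summed shares of the fibroblast and the blood lists were nearly level between the libraries, on 64 and 52 counts and on 30 and 23. Nearly level too was the growth-linked list (0.728% and 0.704%), which shares miR-10b-5p and miR-31-5p with the fibroblast list. The embryonic stem cell list had 3.57% and 3.19%. Each of these sums was lower in library 2. In relative terms the gap was widest for the markers of differentiated cells, which rest on 29 and 10 counts. The part of other cells in the difference of miR-21a between the libraries was not tested.

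**Figure D4:**
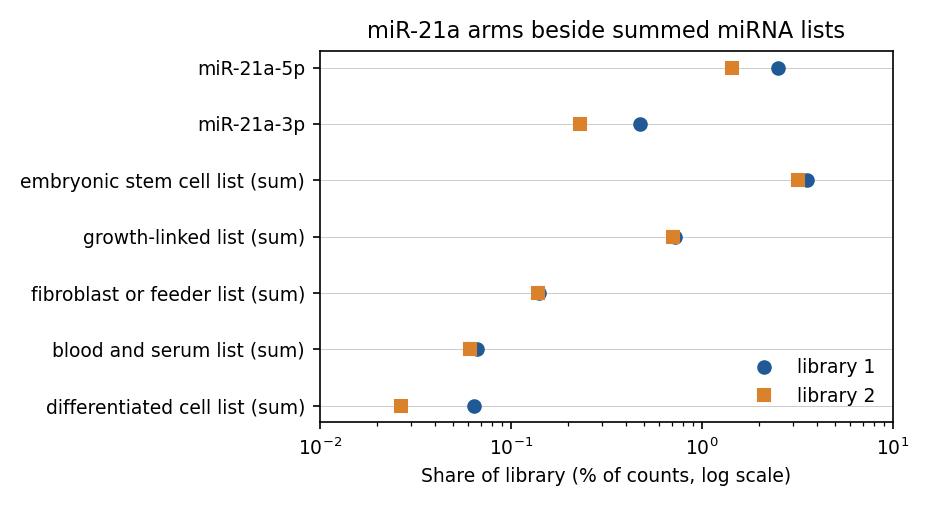
Share of library counts in percent on a log scale (x axis) for the miR-21a arms and for the summed miRNA lists (y axis), with circles for library 1 and squares for library 2. miR-21a-5p, at 2.51% and 1.43%, lies below the embryonic stem cell list and above the other lists, and the fibroblast or feeder list lies at 0.142% and 0.139%.

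Maturation without Dicer is known for miR-451a, whose hairpin is cut by Argonaute 2. It had 0 counts in both libraries, so its share was at most 0.00663% in library 1 and 0.00801% in library 2. Since miR-451a is also one of the blood and serum markers, its 0 counts say nothing of maturation without Dicer in these cells. The shares of miR-21a-5p and miR-21a-3p in the same libraries were far above the limits for miR-451a. Whether they are higher or lower than in cells with Dicer was not analysed here.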

How the data were processed

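Small RNA libraries were made from 1 ug of total RNA with the TruSeq small RNA kit, per the labels' protocols. The authors deposited whole-number counts per mature miRNA, not normalised, for 2 libraries. The submitters' processing notes name cutadapt, STAR, featureCounts and mm10, with no versions; the settings, the miRBase release and the handling of reads matching several miRNAs are not given in the sources used here. Nothing says whether the samples are separate cultures, so tests may measure technical spread.

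Shares used the table total (45222 and 37476 counts). A count of 0 was read as at most 3 counts. With 1 library on each side edgeR's quasi-likelihood test could not be fitted, so each miRNA with at least 10 counts over both libraries was compared by Fisher's exact test, two-sided, with Benjamini-Hochberg adjustment across all miRNAs tested. The 5p and 3p counts of each hairpin were compared likewise, with numbered copies merged; the 10 tests between hairpins were added after the results were seen and adjusted over themselves. The tests were checked on simulated data that held planted changes and counting error only, so the check does not cover other spread between libraries. Planted changes were 2-fold or larger, and their recovery was not required at 2-fold. The check thus says nothing of how often smaller changes are found. Alternatives covered library scales, count and fold minimums, denominators and leaving out each library. The miRNAs named are the members, their 2 neighbours on each side by mean level, the 5 nearest by log2 ratio, the 5 other hairpins with the most counts, entries named miR-21 or sharing a member's seed, and members of 6 lists; lists were not checked against sequence. Members, lists and rules were chosen with earlier results of these data known. Sequences come from RefSeq (GRCm38.p6) and the host gene from GENCODE M21. Python 3.11.15, scipy 1.17.1, RNAfold 2.7.2, edgeR 4.0.16 (TMM factors) and DESeq2 1.42.0 (size factors) were used.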

Additional observations from a re-analysis of the deposited data

How the results depend on the processing

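Apart from leaving out a library, 36 values were computed under alternatives. Of these, 25 kept their call or stayed within the spread of the libraries (a count of calls, within 1.5 times), and 0 reversed. Only a ratio between libraries could reverse, and a changed count or fold minimum leaves that ratio as it is. The mean share of miR-21a-5p rose from 1.97% to 2.82% without the most abundant entry and to 8.34% over miRNAs numbered 1000 or below, and that of miR-21a-3p from 0.351% to 1.47% on the latter; a smaller denominator raises a share by construction. Among miRNAs numbered 1000 or below the ranks of the arms were 3 and 11, in place of 9 and 18. For miR-21a-3p the call was lost with log2 ratios of -0.74 over miRNAs numbered 1000 or below and -0.99 without the 10 most abundant, in both cases by the 2-fold minimum. Without a fold minimum miR-21a-5p was also called, at its log2 ratio of -0.81, and the number of called miRNAs rose from 10 to 25. By 5p share miR-21a took place 9 of 19 hairpins, place 29 of 58 at a minimum of 10 counts and place 6 of 13 at 100 counts.

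Leaving out 1 of 2 libraries returns the other's own value, which says nothing of stability; it gave ranges of 1.43% to 2.51% for the share of miR-21a-5p, 0.229% to 0.473% for miR-21a-3p and 84.2% to 86.2% for the 5p share. The rank ran from 8 to 9 for miR-21a-5p and from 16 to 22 for miR-21a-3p, and the place by 5p share from 9 of 20 hairpins without library 1 to 14 of 25 without library 2, where other hairpins pass the minimum. Without library 1 the level of miR-21a-3p fell by over 1.5 times from its mean, to 0.229%. A ratio of the libraries has no value with either left out. No paired analysis was possible because all samples belong to 1 group. Depth limits the arm comparison, since library 2 had 86 counts of the 3p arm.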
